A study of Mus musculus with 4 samples.

Results

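The transcripts described here encode the enzymes that make cholesterol, the proteins that regulate this synthesis, and the proteins that export, store or move cholesterol inside the cell. They were taken from a list of 32 mouse genes grouped by function. A gene was included when a probe set was annotated to it alone, which left 29 of the 32 genes, and each gene was represented by its probe set of highest mean. Of these, 17 are genes of synthesis, 7 are regulators and 5 serve efflux, storage and transport, among 19937 genes measured in the same way. Acat2, Nr1h2 and Soat1 were not analysed here.

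Expression was measured on Affymetrix Mouse Gene 1.0 ST arrays in resting splenic CD4 T cells of mice lacking the entire Ifitm gene family on a C57BL/6 background (IfitmF-/-, 2 arrays) and of wild-type mice (WT, 2 arrays), aged 6 to 8 weeks. The cells were untreated, and each array held cells pooled from a pair of mice. CD4 T cells were enriched by removing other cells from the spleen suspension. Ifitm3 was at 4.61 and 4.36 on the IfitmF-/- arrays, against 9.26 and 8.91 on the WT arrays (log2 intensity), so the deletion was visible in the labelled samples. Xist was at 4.86 and 4.43 in IfitmF-/- cells and at 11.32 and 11.25 in WT cells, and the Y-linked gene Eif2s3y was at 9.48 and 9.61 in IfitmF-/- cells and at 3.90 and 4.05 in WT cells. Sex and genotype therefore cannot be told apart in any comparison here. Of the CD4 T cell markers, 8 of 10 were measured, with a mean log2 level of 11.70 to 11.72 on the IfitmF-/- arrays and 11.63 to 11.65 on the WT arrays. These markers did not move together, since Cd3d (0.59), Cd3g (0.59) and Il7r (0.46) were called higher and Cd28 (-0.74) and Ccr7 (-0.87) lower (log2 change).

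Cells make cholesterol from acetyl-CoA. The mevalonate arm of the pathway builds isoprenoid units, squalene synthase joins them and commits the carbon to sterols, and the last enzymes trim lanosterol down to cholesterol. The transcription factors SREBP1 and SREBP2 drive the genes of this pathway. They are held in the endoplasmic reticulum by SCAP and the INSIG proteins while sterols are plentiful, and are released when sterols run low. The LXR nuclear receptors respond to oxidised sterols by raising genes of efflux. Resting T cells keep synthesis low and raise it when they are activated and grow.

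The pathway did not move as a block in IfitmF-/- cells. Of the 29 genes, 4 were higher and 2 were lower at an adjusted p under 0.05 (limma, Benjamini-Hochberg over all 34760 probe sets), and 23 were not called. Those higher were Fdft1 and Dhcr7, enzymes of synthesis, and Insig2 and Mylip, regulators. Those lower were the enzyme gene Cyp51 and the regulator gene Insig1. The genes higher made up 13.8% of the members, compared with 4.96% of all genes, and the genes lower made up 6.9%, compared with 3.61% of all genes. No member was dim, meaning below the median of all probe sets (6.26, log2) in both genotypes, whereas 9090 of the 19937 genes were. Among the 10847 genes that were not dim, 8.8% were higher and 6.43% were lower, so the counts of 4 and 2 members lay near this background.

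Both IfitmF-/- arrays lay above both WT arrays for 9 members (31%, compared with 27.9% of all genes) and below them for 10 members (34.5%, compared with 30.8% of all genes). At an unadjusted p under 0.05 limma found 7 members higher and 4 lower, 37.9% of the members in all, compared with 25.8% of all genes. The 4 lower include Idi1, whose probe sets disagree in sign. The shares of all genes in this paragraph include the dim genes. They were not taken among genes that were not dim, so no excess of members is read from them. A change is the mean log2 intensity of IfitmF-/- arrays minus that of WT arrays throughout, and its 95% interval is limma's. Levels of different probe sets are not comparable with each other, so genes are compared only by their changes.

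**Figure D1:**
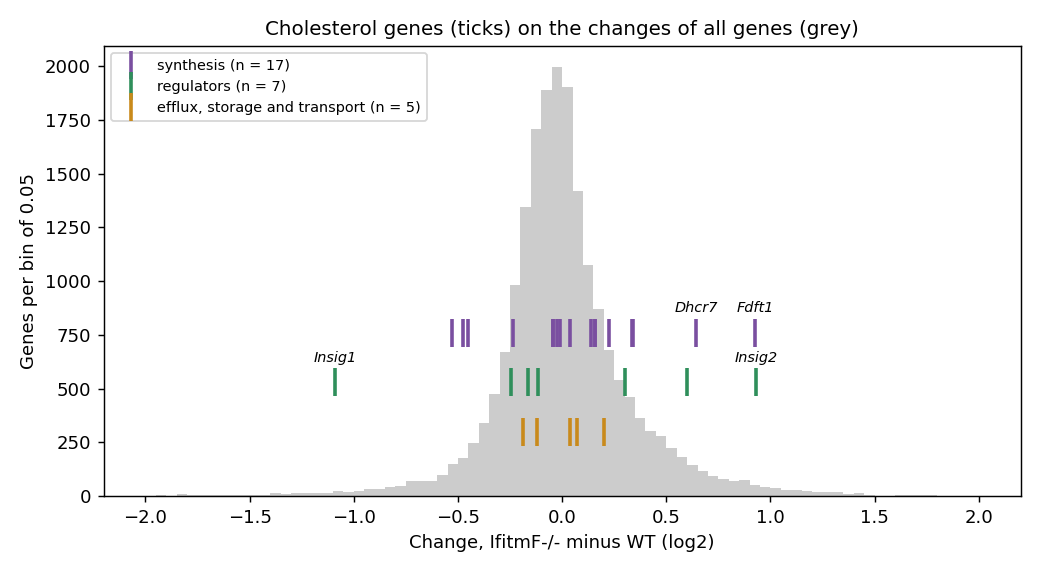
Changes of the cholesterol genes (coloured ticks, a row for each role) placed on the histogram of changes of all 19937 genes (grey; x axis, IfitmF-/- minus WT, log2; y axis, genes per bin of 0.05). Most members lie in the body of the histogram, with Insig1 at -1.09 to its left and Insig2 at 0.93 and Fdft1 at 0.93 to its right; 47 genes that changed by 2 or more in either direction lie outside the axis.

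Synthesis was examined from the start of the pathway. In the mevalonate arm, 0 of 6 genes were called, beside 8.8% called higher and 6.43% called lower among genes that were not dim. The median change was -0.025, with 2 positive and 4 negative changes, and 0.0145, with 3 of each sign, when Idi1 was read from its other probe set. Hmgcs1, whose product makes HMG-CoA, had a change of -0.0089 (interval -0.32 to 0.30). Its log2 intensities were 8.25 and 8.51 on the IfitmF-/- arrays, on either side of 8.39 and 8.39 on the WT arrays. The changes were -0.23 for the mevalonate kinase gene Mvk, 0.038 for the phosphomevalonate kinase gene Pmvk and 0.14 for the decarboxylase gene Mvd. The farnesyl diphosphate synthase gene Fdps had a change of -0.042 (interval -0.25 to 0.17).

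Idi1, which encodes the isomerase of isopentenyl diphosphate, was the mevalonate gene of largest change and is uncertain. Its probe set of highest mean read 8.17 and 7.81 on the IfitmF-/- arrays and 8.43 and 8.51 on the WT arrays, a change of -0.48 (adjusted p = 0.132). Its other probe set read 8.03 and 8.17 on the IfitmF-/- arrays and 7.77 and 7.56 on the WT arrays, a change of 0.44 (adjusted p = 0.0972). In both probe sets the genotypes did not overlap, and the directions were opposite, so no direction can be given for the gene. Averaged over both probe sets, the change was -0.019.

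In the squalene and sterol arm 2 of 11 genes were higher and 1 was lower, beside 8.8% and 6.43% of genes that were not dim. The arms were divided after the values had been seen, and nothing is read from their difference. Its median change was 0.16, with 7 positive and 4 negative changes.

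Fdft1 encodes squalene synthase, which takes farnesyl diphosphate into the sterol branch. It was at 9.11 and 9.19 on the IfitmF-/- arrays, against 8.20 and 8.24 on the WT arrays. It rose 1.90-fold (9.15 ± 0.06 in IfitmF-/- and 8.22 ± 0.03 in WT cells, SD, n = 2 each), and the log2 change was 0.93 (interval 0.71 to 1.15; adjusted p = 0.0162). A separate probe set for Fdft1 read 9.17 and 9.06 on the IfitmF-/- arrays and 8.09 and 8.34 on the WT arrays. Its change of 0.90 was called as well (adjusted p = 0.0296), so both probe sets of this gene gave the same direction and nearly the same size.

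The steps between squalene and lanosterol moved little. Sqle, the squalene epoxidase gene, had a change of 0.23 (adjusted p = 0.162) and Lss, the lanosterol synthase gene, of 0.16 (adjusted p = 0.295), in both cases with the IfitmF-/- arrays above the WT arrays.

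Cyp51, a cytochrome P450 gene whose product removes a methyl group from lanosterol, went the other way from Fdft1. It was at 7.37 and 7.52 on the IfitmF-/- arrays, against 7.99 and 7.96 on the WT arrays. It fell 1.44-fold, a change of -0.53 (7.45 ± 0.11 in IfitmF-/- and 7.97 ± 0.03 in WT cells, SD, n = 2 each; interval -0.78 to -0.28; adjusted p = 0.0452). The call lay close to the threshold and was lost when each array was centred on its median (adjusted p = 0.0573).

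Hsd17b7, a keto reductase gene of the sterol demethylation steps, lay just outside the threshold, while Cyp51 was the called member nearest to it. It was at 7.77 and 7.74 on the IfitmF-/- arrays and at 8.26 and 8.16 on the WT arrays, a change of -0.45 (interval -0.68 to -0.23; adjusted p = 0.0513). Cyp51, which acts earlier in demethylation, had the same sign, and other genes of these steps had the opposite sign without being called. The changes were 0.16 for the methyl oxidase gene Msmo1 (adjusted p = 0.488) and 0.33 for the dehydrogenase gene Nsdhl (adjusted p = 0.116). Tm7sf2, a sterol reductase gene, had a change of -0.045, and Ebp, the sterol isomerase gene, of -0.022 (interval -0.23 to 0.18). Nsdhl and Ebp are X-linked, and 0 of these 2 genes were called.

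Of the late enzymes only Dhcr7 was called. This gene, which encodes the reductase that removes a double bond late in the pathway, was at 8.33 and 8.40 on the IfitmF-/- arrays, against 7.74 and 7.69 on the WT arrays. It rose 1.56-fold, a change of 0.64 (8.36 ± 0.05 in IfitmF-/- and 7.72 ± 0.04 in WT cells, SD, n = 2 each; interval 0.42 to 0.86; adjusted p = 0.0267). Sc5d, the desaturase gene of the step before it, had a change of 0.34 and was not called (adjusted p = 0.0965), with 8.90 and 8.99 on the IfitmF-/- arrays and 8.65 and 8.56 on the WT arrays. Over all 17 genes of synthesis the median change was 0.038, compared with -0.020 over all genes. It was 0.137 when Idi1 was read from its other probe set.

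**Figure D2:**
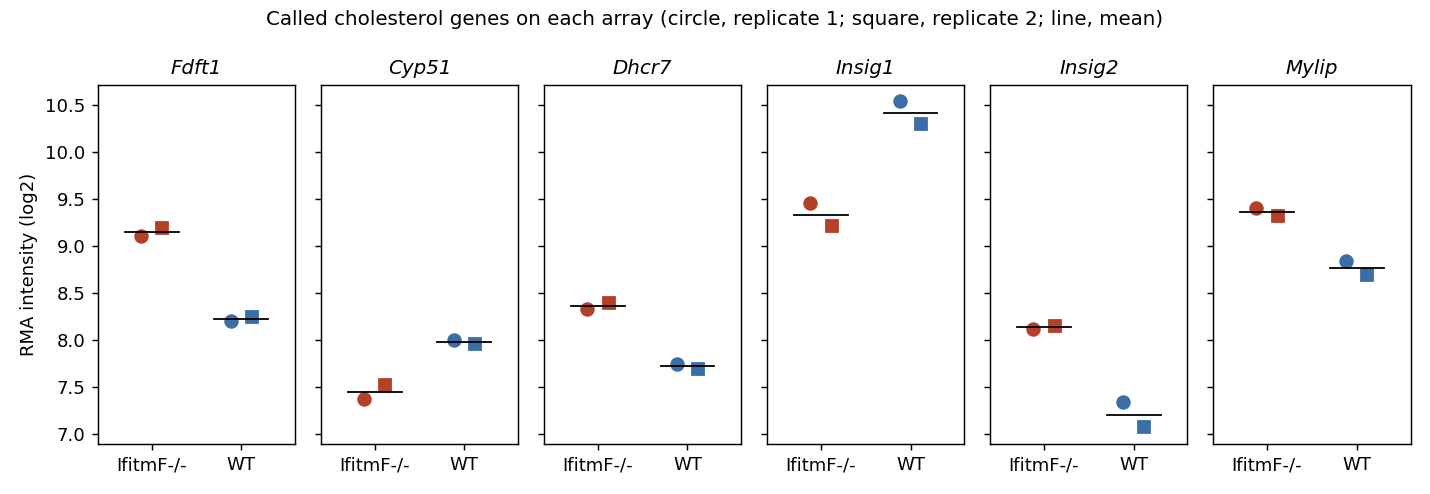
Log2 RMA intensity (y axis) of the 6 called genes on each array; red, IfitmF-/-; blue, WT; circles, replicate 1; squares, replicate 2; black lines, means of 2 arrays. The genotypes do not overlap in any of the 6 genes, with Insig1 at 9.46 and 9.21 in IfitmF-/- cells below 10.54 and 10.30 in WT cells and Insig2 in the opposite order; heights of different genes cannot be compared.

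Promoter sequence is shown for both called enzymes of synthesis with an entry, since SREBP acts at promoters together with the factor NF-Y, whose box is CCAAT. Windows of 300 bases around gene starts were taken from RefSeq (GRCm38.p6), in the orientation given there, and matched 23 of the 29 members, with 32 windows in all; Fdft1 had no entry. CCAAT was sought on both strands and is in capitals. The Cyp51 window, chr5:4104648-4104947 (minus strand), held 1 match. The Dhcr7 window of most matches, chr7:143829964-143830263 (plus strand), held 2, and the other Dhcr7 windows each held 0.
Cyp51: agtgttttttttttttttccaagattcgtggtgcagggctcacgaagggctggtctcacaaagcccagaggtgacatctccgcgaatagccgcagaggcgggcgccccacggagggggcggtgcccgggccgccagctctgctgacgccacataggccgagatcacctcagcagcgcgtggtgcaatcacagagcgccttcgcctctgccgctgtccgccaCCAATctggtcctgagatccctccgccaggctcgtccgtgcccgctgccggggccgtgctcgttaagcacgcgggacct
Dhcr7: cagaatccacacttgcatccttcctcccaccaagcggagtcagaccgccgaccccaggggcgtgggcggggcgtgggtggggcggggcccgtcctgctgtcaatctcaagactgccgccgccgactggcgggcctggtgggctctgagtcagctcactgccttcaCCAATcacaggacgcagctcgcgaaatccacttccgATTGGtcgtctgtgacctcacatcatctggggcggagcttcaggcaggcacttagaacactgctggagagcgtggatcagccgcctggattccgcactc

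CCAAT was common in the windows of the synthesis genes, and was present for Cyp51, which was lower, and for Dhcr7, which was higher. It occurred in 14 of their 17 windows (82.4%), compared with 37.4% of all 32851 windows. Counted by gene, it was in 1 or more windows of 14 of 14 synthesis genes with an entry. No share by gene was taken over all genes, so nothing is read from this count. The GC box GGGCGG, sought on both strands, occurred in 14 of the 17 windows (82.4%), compared with 35.7% of all windows. Base composition was not matched in these shares. A strict sterol regulatory element, TCACNCCAC on either strand, was in 1.24% of all windows and in 1 member window, that of Hmgcs1. The stretch around it, at chr13:119690189-119690248 (plus strand), is shown with the element in capitals.
Hmgcs1: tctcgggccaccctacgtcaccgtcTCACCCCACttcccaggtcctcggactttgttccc

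The INSIG genes, a pair of paralogues among the regulators, changed in opposite directions. Insig1 and Insig2 encode membrane proteins of the endoplasmic reticulum that retain the SCAP and SREBP complex. Insig1 is itself raised by SREBP, so that its transcript is a common readout of the pathway. Insig1 was at 9.46 and 9.21 on the IfitmF-/- arrays, against 10.54 and 10.30 on the WT arrays. It fell 2.13-fold, a change of -1.09 (9.33 ± 0.17 in IfitmF-/- and 10.42 ± 0.17 in WT cells, SD, n = 2 each; interval -1.46 to -0.72; adjusted p = 0.0265). Insig2 was at 8.12 and 8.15 on the IfitmF-/- arrays, against 7.34 and 7.07 on the WT arrays. It rose 1.91-fold, a change of 0.93 (8.13 ± 0.02 in IfitmF-/- and 7.20 ± 0.19 in WT cells, SD, n = 2 each; interval 0.61 to 1.25; adjusted p = 0.0272). The intervals of the paired paralogues lie on opposite sides of 0.

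The promoters of this pair are shown because the transcripts moved in opposite directions. The Insig1 window, chr5:28071162-28071461 (plus strand), held 1 CCAAT match, and the Insig2 window of most matches, chr1:121332540-121332839 (minus strand), held 3, in capitals. The GC box occurred 3 times in the Insig1 window and 0 times in this Insig2 window. The 2 other Insig2 windows each held 0 CCAAT and 1 GC box, so a contrast with Insig1 depends on the window chosen. The element TCACNCCAC was in none of them, which says only that these letters are not in the windows.
Insig1: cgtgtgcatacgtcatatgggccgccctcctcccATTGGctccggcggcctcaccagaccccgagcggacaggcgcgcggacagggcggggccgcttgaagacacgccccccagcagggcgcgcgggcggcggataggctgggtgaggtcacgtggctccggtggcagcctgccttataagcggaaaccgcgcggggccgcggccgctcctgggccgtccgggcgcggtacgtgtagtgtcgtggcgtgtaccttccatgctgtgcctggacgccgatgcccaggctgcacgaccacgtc
Insig2: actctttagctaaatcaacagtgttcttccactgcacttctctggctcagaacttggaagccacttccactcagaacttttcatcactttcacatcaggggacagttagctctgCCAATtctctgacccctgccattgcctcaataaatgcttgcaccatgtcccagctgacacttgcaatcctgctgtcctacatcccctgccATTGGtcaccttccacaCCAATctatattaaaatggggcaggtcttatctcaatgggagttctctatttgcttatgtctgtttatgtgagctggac

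The SREBP genes and SCAP moved less than the INSIG pair. Srebf1 was at 8.26 and 8.27 on the IfitmF-/- arrays and at 8.42 and 8.61 on the WT arrays, a change of -0.25 (interval -0.51 to 0.020; adjusted p = 0.215). Srebf2 had a change of -0.16 (interval -0.42 to 0.093; adjusted p = 0.358). Scap, the sterol sensor that escorts SREBP out of the endoplasmic reticulum, had a change of -0.12 (interval -0.33 to 0.091). In all 3 genes both IfitmF-/- arrays lay below both WT arrays, as in 30.8% of all genes, and none was called. A further probe set annotated to Srebf2 together with other genes was 0.88 higher (adjusted p = 0.018), and it cannot be assigned to any of them.

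Mylip encodes a ubiquitin ligase, also called IDOL, that marks lipoprotein receptors for breakdown and is a target of LXR. It was at 9.40 and 9.32 on the IfitmF-/- arrays, against 8.84 and 8.69 on the WT arrays. It rose 1.51-fold, a change of 0.60 (9.36 ± 0.06 in IfitmF-/- and 8.76 ± 0.10 in WT cells, SD, n = 2 each; interval 0.34 to 0.85; adjusted p = 0.0391). Over the 7 regulators the median change was -0.12, with 2 higher, 1 lower and 4 not called. Among genes that were not dim, 8.8% were higher and 6.43% were lower.

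Nr1h3, the LXRα gene, is expressed in macrophages and varied most between arrays of the same genotype. It was at 7.11 and 8.31 on the IfitmF-/- arrays and at 7.63 and 7.19 on the WT arrays, so the genotypes overlapped (change 0.30, interval -0.87 to 1.48; adjusted p = 0.714). The myeloid marker list, which includes the macrophage genes Csf1r, Adgre1 and C1qa, had mean log2 levels of 8.67 and 9.64 on the IfitmF-/- arrays and of 9.49 and 8.76 on the WT arrays. Nr1h3 and this list thus had the same order over the 4 arrays. The summed myeloid signal was 8676 and 18680 linear units on the IfitmF-/- arrays, against 16580 and 9457 on the WT arrays, and 13 of its 14 genes were highest on IfitmF-/- replicate 2 and WT replicate 1. None of the 14 was dim and 0 were called. The part of myeloid transcripts in the Nr1h3 values was not tested. In bulk RNA, fewer cells of a type and less RNA per cell cannot be told apart.

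**Figure D3:**
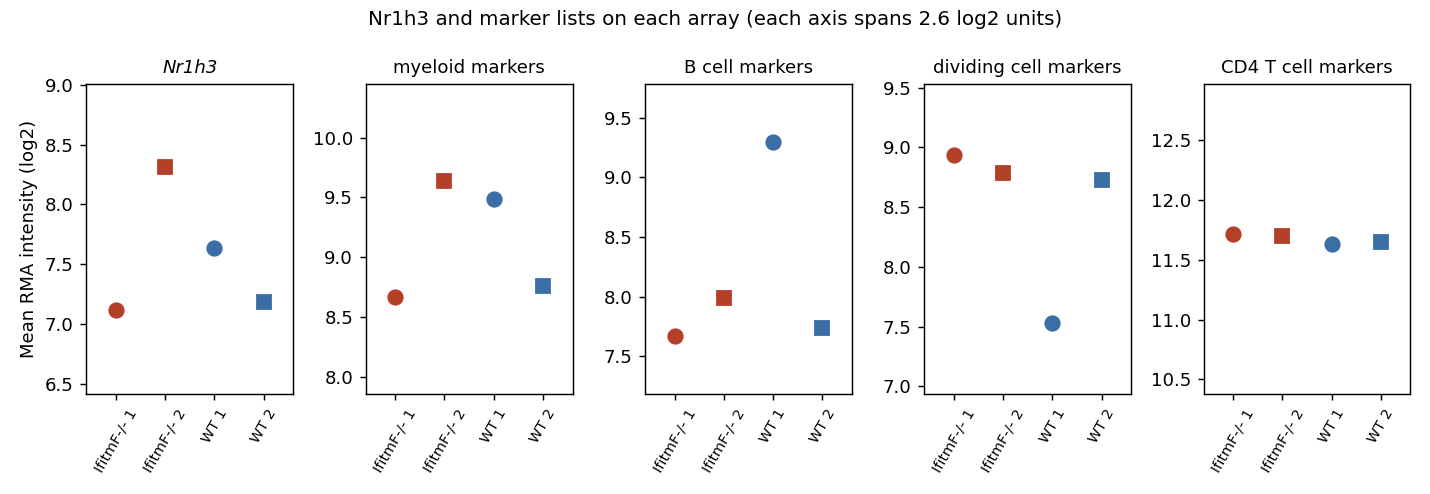
Log2 RMA intensity of Nr1h3, and the mean log2 level of 4 marker lists, on each array (y axis; red, IfitmF-/-; blue, WT; circles, replicate 1; squares, replicate 2). Nr1h3 and the myeloid list are highest on IfitmF-/- replicate 2 (8.31 and 9.64), B cell markers are highest and dividing cell markers lowest on WT replicate 1, and the mean of the CD4 T cell markers lies between 11.63 and 11.72 on every array, with single markers higher or lower.

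Genes of efflux, storage and transport showed the smallest changes of the 3 roles. Of 5 genes, 0 were called, beside 8.8% called higher and 6.43% called lower among genes that were not dim. At an unadjusted p under 0.05 limma found 0 of the 5, compared with 25.8% of all genes. This share includes the dim genes and the group is small, so no shortfall is read from it. The median change of the 5 genes was 0.040, and their changes ran from -0.19 to 0.20.

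The transporters that export cholesterol had changes of opposite sign. Abca1, which loads cholesterol onto apolipoprotein, was at 7.87 and 7.79 on the IfitmF-/- arrays and at 7.81 and 7.44 on the WT arrays, a change of 0.20 (interval -0.19 to 0.60; adjusted p = 0.456). Abcg1, which passes cholesterol to lipoprotein particles, was at 9.82 and 9.99 on the IfitmF-/- arrays and at 10.15 and 10.04 on the WT arrays, a change of -0.19 (interval -0.46 to 0.086; adjusted p = 0.329). The genotypes overlapped for Abca1 and did not for Abcg1. Mylip, also an LXR target, was called.

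Npc1 and Npc2 encode the proteins that carry cholesterol out of the lysosome. The change of Npc1 was 0.040 (interval -0.20 to 0.28) and that of Npc2 was 0.072 (interval -0.17 to 0.31). Stard4, a sterol carrier gene driven by SREBP, had a change of -0.12 (interval -0.48 to 0.24). The arrays of the genotypes overlapped in all 3 genes. Over all roles, 18 of the 23 uncalled members had an interval within 1.5-fold in either direction, so larger changes of those genes lie outside the 95% intervals.

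**Figure D4:**
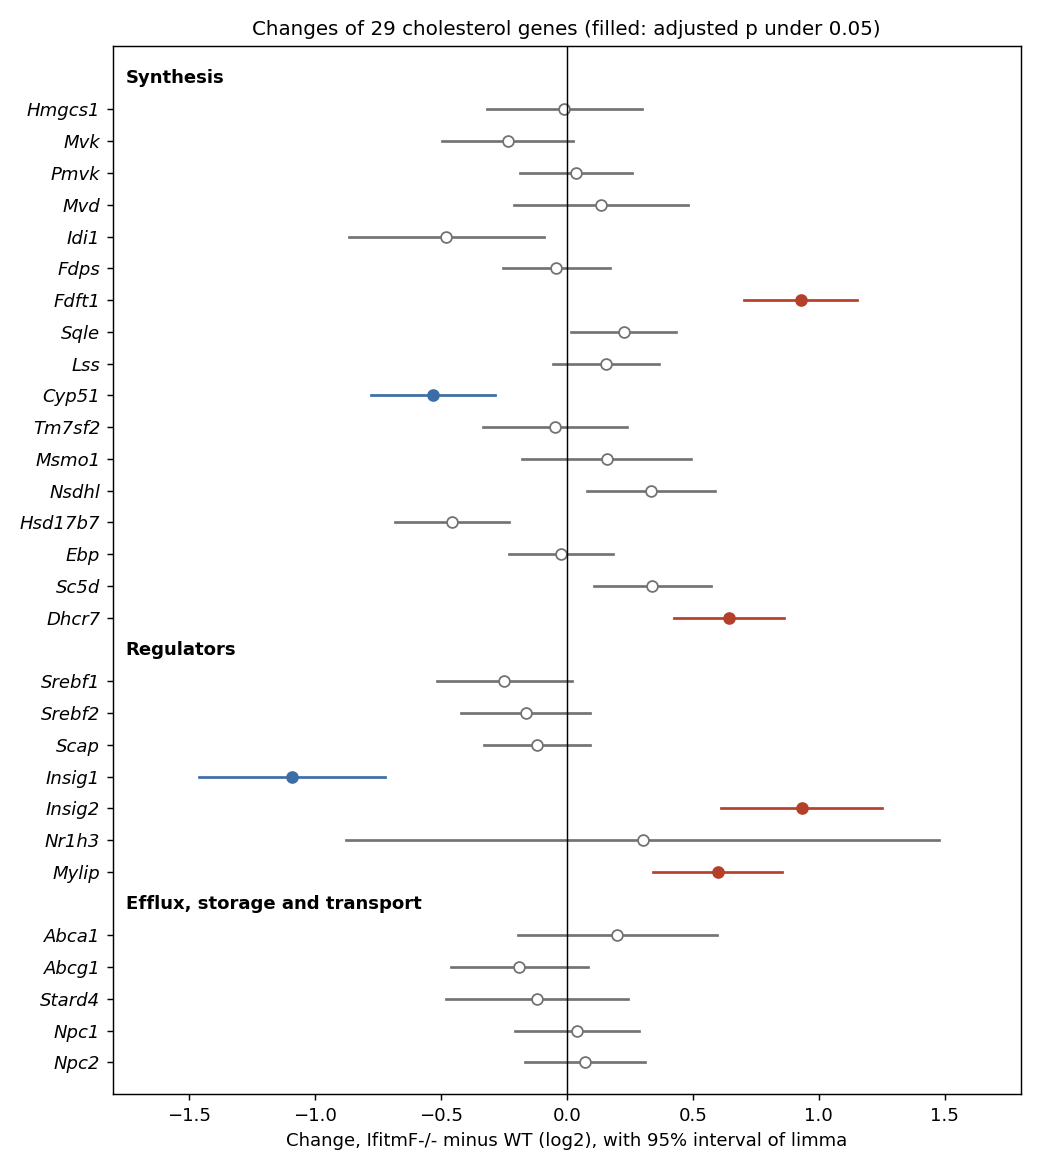
Changes of the 29 genes (x axis, IfitmF-/- minus WT, log2; points, estimates; bars, 95% intervals of limma; filled, adjusted p under 0.05, with red higher and blue lower), in pathway order within each role. Fdft1, Dhcr7, Insig2 and Mylip lie to the right and Cyp51 and Insig1 to the left of 0, and Nr1h3 has the widest interval, -0.87 to 1.48.

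Other genes of the same pathways were counted in the same way. The list of other sterol pathway genes also holds the transcription factor genes Nfya, Nfyb, Nfyc, Sp1 and Rora. Of 30 other sterol pathway genes measured, limma called 1 higher and 2 lower, beside 8.8% and 6.43% of genes that were not dim. Nfyb, a subunit of NF-Y, was at 8.15 and 8.13 in IfitmF-/- cells and at 7.69 and 7.68 in WT cells (change 0.46, adjusted p = 0.0423). Gramd1b, whose product moves cholesterol from the plasma membrane to the endoplasmic reticulum, was at 9.08 and 9.10 in IfitmF-/- cells and at 9.56 and 9.59 in WT cells (change -0.48, adjusted p = 0.0391). Rora, a nuclear receptor gene whose product binds sterols, fell most, with 7.80 and 7.62 in IfitmF-/- cells and 9.58 and 9.76 in WT cells (change -1.96, adjusted p = 0.0131).

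Of 17 fatty acid synthesis genes, which SREBP1 drives, 1 was called higher and 1 lower, beside 8.8% and 6.43% of genes that were not dim. Their changes were positive for 8 genes and negative for 9. Acss2, which makes acetyl-CoA from acetate, rose by 0.52 (adjusted p = 0.0392), and Hacd3, a dehydratase gene of fatty acid elongation, fell by 0.57 (adjusted p = 0.0312). Fasn, the fatty acid synthase gene, had a change of -0.094 (adjusted p = 0.524). Of 12 genes of the isoprenoid branch, which uses mevalonate for protein prenylation, dolichol and coenzyme Q, 0 were called by limma. At an unadjusted p under 0.05 limma found 5 (41.7%), compared with 25.8% of all genes. The latter share includes the dim genes, so no excess is read from it.

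WT replicate 1 stood apart in markers of B cells and of dividing cells. All 9 B cell markers were highest there, with a mean log2 level of 9.30, compared with 7.67 and 7.99 on the IfitmF-/- arrays and 7.74 on WT replicate 2. All 9 markers of dividing cells were lowest there, with a mean of 7.53, compared with 8.93 and 8.79 on the IfitmF-/- arrays and 8.73 on WT replicate 2. Of these 18 genes 0 were called and 1, Cr2, was dim. Without WT replicate 1 the changes were 0.91 for Fdft1, -0.51 for Cyp51, 0.67 for Dhcr7, -0.97 for Insig1, 1.07 for Insig2 and 0.67 for Mylip, close to those on all arrays. The sum of the B cell list was 2880 and 4401 linear units on the IfitmF-/- arrays, against 9566 and 3413 on the WT arrays. Markers of plasma cells, which are secretory cells, were lower, with 1 of 5 called (Derl3), means of 7.44 and 7.54 on the IfitmF-/- arrays and of 8.45 and 8.09 on the WT arrays. Erythroid markers had means of 9.67 and 9.50 on the IfitmF-/- arrays and of 8.20 and 9.08 on the WT arrays, with 0 of 5 called. Platelet markers had means of 9.15 and 10.47 on the IfitmF-/- arrays and of 8.996 and 8.54 on the WT arrays, with 0 of 4 called. Neutrophil markers had means of 5.58 and 5.67 on the IfitmF-/- arrays and of 5.16 and 5.14 on the WT arrays, with 6 of 7 dim and Retnlg called higher. Of 6 NK cell markers, 5 had positive changes without a call, and 1, Nkg7, was called lower. The NK cell list had means of 7.885 and 7.693 on the IfitmF-/- arrays and of 7.682 and 7.31 on the WT arrays. The part of transcripts of these cells in the changes was not tested.

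The changes were also estimated on each set of 3 arrays, where the calls were lost. Without any single array limma called 0 probe sets in all, with 6062 to 9107 at an unadjusted p under 0.05, and the lowest adjusted p of a member was 0.0681. All 6 called members kept their sign in each of these fits. Their genotypes do not overlap on any array, so this was fixed in advance and adds no support. Of the 29 members, 22 kept their sign. Across them the change ran from -1.21 to -0.97 for Insig1, from 0.80 to 1.07 for Insig2, from 0.88 to 0.97 for Fdft1 and from -0.60 to -0.46 for Cyp51.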

How the data were processed

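Each deposited intensity was a linear RMA value, made by the authors through background correction, quantile normalization across arrays and summary of probes. RMA and affy are named in the submitters' processing notes, with versions not given in the sources used here. A shift common to all genes is lost in such normalization. The log2 of each intensity was taken. Median intensities were 75.9 and 74.8 on the IfitmF-/- arrays and 77.1 and 78.1 on the WT arrays, and the number of arrays limits the precision.

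All 34760 probe sets were fitted with limma 3.58.1 (lmFit, eBayes; R 4.3.3) without covariates, leaving 2 residual degrees of freedom, and p-values were adjusted across the whole table by Benjamini-Hochberg. In the platform annotation 21640 probe sets had 1 gene, 1321 had more and 11799 had no gene listed; gene IDs gave current symbols for 21553 of them. The p-values rest on the spread between 2 separate preparations per genotype. For p-values and intervals, limma moderated that spread towards a prior from all probe sets, with 2.39 prior degrees of freedom. Members and lists were chosen with earlier results of these data known. Per-array values are given for every called member and for the 2 uncalled members of largest change in each role, and called genes of the other sterol, fatty acid and isoprenoid lists are named; other genes were named after their values were seen. The fit was tested on simulated arrays. Alternatives were other eBayes priors, normalizations, filters, a pseudocount of 16, probe set averages, the methods' filter (fold change over 2, range of 250 units) and the methods' t-test, a replicate block and leaving out each array.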

Additional observations from a re-analysis of the deposited data

How the results depend on the processing

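With 2 arrays per genotype the calls are fragile. Without each array in turn limma called 0 members, 0 genes of the other lists and 0 probe sets, compared with 2930 on all arrays, the lone array of a genotype being assumed to vary like the others. The median change then ran from 0.0124 to 0.0802 for synthesis, from -0.144 to -0.0919 for regulators and from -0.0267 to 0.107 for efflux, storage and transport, where it changed sign. Uncalled members changed sign, with ranges of -0.137 to 0.119 (Hmgcs1), -0.0033 to 0.0793 (Pmvk), -0.0064 to 0.28 (Mvd), -0.145 to 0.0543 (Tm7sf2), -0.298 to 0.90 (Nr1h3), -0.26 to 0.0224 (Stard4), and -0.0267 to 0.107 (Npc1).

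Same-numbered arrays of the genotypes share only a number, and their deviations correlated at -0.124 over probe sets. With the replicate block limma called 0 probe sets (8016 at an unadjusted p under 0.05), 0 members and 0 genes of the other lists. With the numbers crossed, a pairing added after the data were seen, it called 975 probe sets, 0 members lower, 1 higher (Fdft1), and 1 other sterol gene lower. The methods' t-test called 4 probe sets after adjustment and 0 members; at an unadjusted p under 0.05 it found 6811 probe sets, 4 members lower and 7 higher. The methods' filter left 403 probe sets, 1 member lower (Insig1), 0 higher, and 1 other sterol gene (Rora). Fdft1, at 1.90-fold, lay under its fold limit here. The study reports a larger number of genes after this filter and lists Fdft1 among them, so its list was not reproduced.

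Median centring gave 1 member lower, medians of 0.0808 for synthesis, -0.0751 for regulators and 0.083 for efflux, storage and transport, and 2 other sterol genes higher, and turned the changes of Hmgcs1 (0.034), Fdps (0.00115) and Ebp (0.0206). The other Idi1 probe set, an alternative added after the data were seen, gave 0.44 for Idi1 and a synthesis median of 0.137. Renewed quantile normalization gave a synthesis median of 0.0669. Hsd17b7 was called lower with an intensity trend, renewed quantile normalization, without dim probe sets, with probe sets of 1 gene, with probe set averages and with the pseudocount (adjusted p = 0.0248 to 0.0445). Other sterol genes called lower numbered 4 and those higher 5 (trend, pseudocount) or 6 (without dim probe sets, probe sets of 1 gene, averages). Isoprenoid genes called lower numbered 1 (trend, pseudocount) or 2, and higher 2, in these settings except the trend. No measure of background was used; the members nearest to the median of all probe sets were Tm7sf2 and Pmvk. The causes of these shifts were not tested.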
